A study of Rattus norvegicus with 47 samples.

Results

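Chemokines, interleukins, the tumour necrosis factor (TNF) families and the receptors of all of these were followed in the kidney cortex of rats given lithium, alone or with amiloride. The members are genes whose symbol begins with Ccl, Cxcl, Cx3cl, Ccr, Cxcr, Cx3cr or Il and a digit, or with Tnf, and which stand in at least 1 of the 9 deposited tables of changed genes, 3 tables for each of 3 treatment times. They number 90 of the 32545 genes in the count tables and of the 9237 genes in those tables. The RefSeq rat annotation holds 172 genes with such names, and those that stand in none of the tables, such as *Il6* and *Tnf*, were not followed. The members were thus chosen by their adjusted p, with no fold limit, in the same 9 comparisons that are described here. The differences below therefore describe the members and carry no test, except where a gene listed at 1 time was measured at another.

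Male Wistar rats received control chow, lithium (60 mM lithium carbonate in the chow, in the labels' unit) or lithium and amiloride (the same chow and 0.2 mM amiloride in the water), and cortex was taken after 14 days, 28 days or 6 months. The paper gives the lithium dose per kg of dry food, with a lower dose in the first week of the short studies. Lithium-fed rats also had a salt block, and amiloride began together with lithium in the short studies but after it in the 6-month study. Amiloride blocks the epithelial sodium channel, through which lithium enters the principal cells of the collecting duct. At 14 and 28 days 6 control, 6 lithium and 5 lithium-amiloride libraries were compared, and at 6 months 4 libraries labelled control, 3 labelled lithium and 3 labelled lithium-amiloride.

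Chemokines are small secreted proteins that guide leukocytes through G protein-coupled receptors. Interleukins signal mostly through paired receptor chains, with Janus kinases and STAT factors for the common-chain and gp130 families and with MyD88 and NF-κB for the interleukin-1 family. TNF superfamily ligands form trimers and engage receptors that recruit TRAF adaptors, and NF-κB in turn induces chemokine genes and its own inhibitors such as *Tnfaip3*. In the kidney these molecules are known from injured tubules and from the leukocytes that gather in the interstitium, and in RNA from whole cortex fewer cells of a type and less RNA per cell cannot be told apart.

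Of the 47 deposited libraries, the 14-day libraries held between 10399818 and 15618395 counted reads, the 28-day libraries between 14779709 and 17554304, and the 6-month libraries between 21245870 and 25415685. Levels are counts per 1000000 counted reads (CPM), so 1 CPM stood for 10 to 25 reads. Of the 47, 3 libraries (14-day lithium-amiloride 2 and, at 6 months, labelled lithium 4 and labelled lithium-amiloride 4) were not part of the libraries behind the tables and were left out, so 44 were compared. The summed proximal tubule list lay between 7640 and 12198 CPM, as cortex would give, but other lists differed between groups. At 28 days the thick limb list summed to 758 to 1490 CPM in control, 1147 to 2677 in lithium and 1716 to 2773 in lithium-amiloride. At 14 days the erythroid list summed to 197 to 722, 78.8 to 263 and 61.2 to 101 CPM in that order. The adipocyte list reached 165 CPM in 28-day lithium (median 14). The part of these differences in the members' values was not tested. The 6-month tables and the 6-month labels disagree: the direction of all 6057 genes listed there follows from the counts only if the libraries labelled lithium-amiloride are the controls, those labelled control are lithium and those labelled lithium are lithium-amiloride, whereas the labels as given match for 1132 (18.7%). Groups are therefore called by their labels at 6 months. The tables' names are given as well for the counts of members and for some genes. With the tables' names, every difference of labelled lithium-amiloride from labelled control changes sign and becomes lithium against control. The difference of labelled lithium-amiloride from labelled lithium changes sign and becomes lithium-amiloride against control. Labelled lithium against labelled control keeps its sign and becomes lithium-amiloride against lithium. The collecting duct list, which includes the water channel gene *Aqp2*, summed to 232 to 314 CPM in control and 67 to 96.7 CPM in lithium libraries at 14 days, and at 6 months to 99.1 to 125 CPM in libraries labelled control, 177 to 193 CPM in those labelled lithium and 214 to 322 CPM in those labelled lithium-amiloride. The labels do not say that each library is 1 animal, so a p-value measures the spread between these libraries.

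After 14 days the members were higher in lithium than in control cortex more often than lower. Of the 78 members with enough reads, 32 were called higher and 4 lower, where 8.49% of all tested genes were called higher and 3.63% lower. A call here is an adjusted p under 0.05 (edgeR, quasi-likelihood test) with a log2 fold change of at least 0.5 either way. The median log2 fold change of these 78 genes was 0.44, against 0.00 over all genes. In lithium-amiloride against control 12 were higher and 5 lower (5.04% and 3.27% of all genes), and in lithium-amiloride against lithium none was higher and 2, *Il1rn* and *Tnfrsf26*, were lower (0.79% and 1.4%). At an unadjusted p under 0.05 the last comparison had 2 members higher and 25 lower with edgeR, and DESeq2 called none higher and 6 lower. Of all 14179 tested genes, 2527 passed the same unadjusted limit with edgeR in either direction. The comparisons of a time share libraries, and since these contrasts chose the members nothing is read from the counts. Nearest to the limit of the 14-day lithium table lay *Tnfaip8l2* and *Il12rb2* just inside, with log2 fold changes of 0.46 ± 0.16 and 0.56 ± 0.22 (± SE throughout for fold changes), and *Cx3cl1* and *Ccr1* just outside, with -0.20 ± 0.09 and 0.87 ± 0.41.

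**Figure D1:**
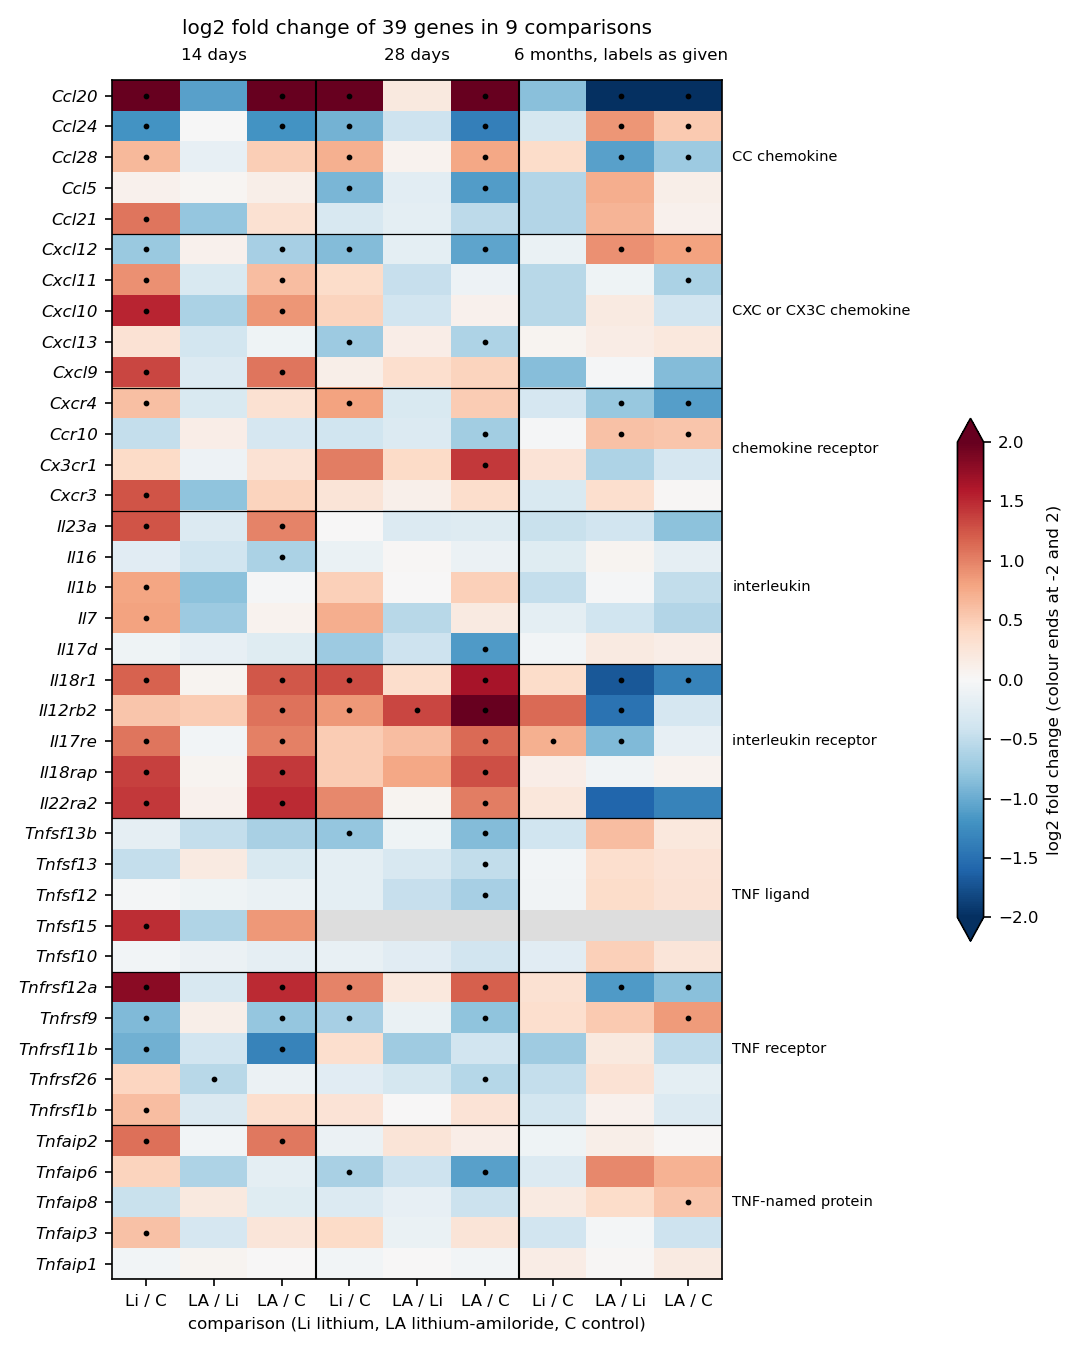
Log2 fold changes (colour, limited to -2 and 2) of 39 members, in rows ordered by role, in the 9 comparisons, in columns ordered by time, with a dot where the gene was called; 6-month columns carry the labels as given. At 14 days 32 of all 78 tested members were called higher in lithium, and at 6 months the colours of Ccl20, Tnfrsf12a and Il18r1 turn in the columns of the libraries labelled lithium-amiloride.

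The promoters of 4 members called higher in lithium at 14 days are shown because short sequences of the kind bound by NF-κB or by interferon-induced factors stand in them. They run from 250 bases before to 50 bases after the annotated start (RefSeq, build GRCr8), 5′ to 3′ along the gene, with the searched letters in capitals. The letters GGGNNTTTCC, sought on both strands, are in capitals in the first 3 and GAAANNGAAA in the fourth. *Ccl20* lies at chr9:91836909-91837208 (plus strand), *Tnfaip3* at chr1:15543930-15544229 (minus strand), *Il1rn* at chr3:27520072-27520371 (plus strand) and *Cxcl10* at chr14:15988816-15989115 (plus strand). The matches begin 89 bases before the start of *Ccl20*, 67 and 55 bases before that of *Tnfaip3*, 129 bases before that of *Il1rn* and 243 bases before that of *Cxcl10*.
Ccl20: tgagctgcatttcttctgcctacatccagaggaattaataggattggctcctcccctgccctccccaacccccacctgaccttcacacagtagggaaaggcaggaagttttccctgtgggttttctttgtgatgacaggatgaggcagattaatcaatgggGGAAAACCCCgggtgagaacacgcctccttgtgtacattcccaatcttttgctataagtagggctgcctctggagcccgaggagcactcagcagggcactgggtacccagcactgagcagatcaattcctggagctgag
Tnfaip3: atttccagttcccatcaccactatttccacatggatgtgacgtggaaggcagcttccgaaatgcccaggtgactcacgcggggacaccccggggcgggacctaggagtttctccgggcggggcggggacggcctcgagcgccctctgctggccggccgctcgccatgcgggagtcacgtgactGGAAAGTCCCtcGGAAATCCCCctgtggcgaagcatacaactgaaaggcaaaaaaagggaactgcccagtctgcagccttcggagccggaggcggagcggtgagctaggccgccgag
Il1rn: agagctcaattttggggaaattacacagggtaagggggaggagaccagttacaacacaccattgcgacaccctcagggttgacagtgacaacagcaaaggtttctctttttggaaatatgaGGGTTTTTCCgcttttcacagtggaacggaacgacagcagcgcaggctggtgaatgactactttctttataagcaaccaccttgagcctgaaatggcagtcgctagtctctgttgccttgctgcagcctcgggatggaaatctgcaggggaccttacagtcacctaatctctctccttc
Cxcl10: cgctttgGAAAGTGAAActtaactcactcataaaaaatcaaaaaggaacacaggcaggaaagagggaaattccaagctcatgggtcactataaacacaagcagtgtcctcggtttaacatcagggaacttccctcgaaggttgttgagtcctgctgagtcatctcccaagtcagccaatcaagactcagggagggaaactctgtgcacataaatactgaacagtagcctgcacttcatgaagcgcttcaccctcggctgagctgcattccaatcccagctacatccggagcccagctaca

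These letters were picked after the sequences had been seen and describe the windows only. GGGNNTTTCC occurred in 6 of the 72 members with a promoter sequence (8.33%; *Ccl20*, *Cxcl1*, *Cxcl6*, *Il1rn*, *Il4r* and *Tnfaip3*) and in 512 of all 33469 promoters (1.53%). GAAANNGAAA occurred in 8 (11.1%; *Ccl19*, *Cxcl10*, *Il12rb1*, *Il19*, *Il1rap*, *Il6st*, *Tnfrsf1b* and *Tnfsf13b*) and in 1312 of all (3.92%). Of the 27 members called higher at 14 days that have a promoter sequence, 4 held the first and 4 the second.

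Among the CC chemokines, *Ccl20*, the ligand of *Ccr6* that draws T helper 17 cells and immature dendritic cells, differed most. At 14 days its levels were 0.305 to 0.758 CPM (median 0.409) in control, 5.42 to 23 CPM (median 15.3) in lithium and 3.47, 3.71, 11.5, 5.59 and 9.49 CPM in the 5 lithium-amiloride libraries. Both treated groups lay wholly above control and overlapped each other. The fold changes were 30.3-fold in lithium and 14.2-fold in lithium-amiloride (log2 4.92 ± 0.49 and 3.83 ± 0.52), and lithium-amiloride against lithium gave -1.09 ± 0.36, which was not called. At 28 days control held 0.15 to 0.572 CPM (median 0.357), lithium 1.84 to 3.62 CPM (median 2.23) and lithium-amiloride 1.62, 2.23, 3.3, 4.31 and 2.28 CPM. Treated and control groups were again apart, by 2.69 ± 0.31 in lithium and 2.89 ± 0.32 in lithium-amiloride. At 6 months the libraries labelled control had 4.31, 5.78, 3.29 and 4.73 CPM, those labelled lithium 2.3, 2.65 and 2.65 CPM and those labelled lithium-amiloride 0.826, 0.775 and 0.237 CPM. The 3 labelled groups did not overlap, with the labelled lithium-amiloride libraries lowest: -2.88 ± 0.32 against labelled control and -2.05 ± 0.34 against labelled lithium. With the tables' names *Ccl20* was higher by 2.88 ± 0.32 in lithium and by 2.05 ± 0.34 in lithium-amiloride than in control, and every *Ccl20* call was kept under each alternative.

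*Ccl28*, an epithelial chemokine that attracts cells bearing *Ccr10*, was also higher in lithium. Levels at 14 days were 3.61 to 5.7 CPM (median 4.52) in control, 5.18 to 9.29 CPM (median 7.24) in lithium and 5.14, 5.67, 4.64, 9.23 and 6.89 CPM in lithium-amiloride, with overlapping groups and a lithium difference of 0.65 ± 0.18. At 28 days they were 2.11 to 5.64 CPM (median 3.15), 3.98 to 7.28 CPM (median 5.64) and 5.54, 4.69, 5.37, 6.55 and 7.02 CPM, again overlapping, with 0.71 ± 0.20 in lithium and 0.78 ± 0.21 in lithium-amiloride. Libraries labelled lithium-amiloride at 6 months, at 3.3, 5.15 and 4.69 CPM, were below all those labelled lithium (10.1, 8.07 and 9.68 CPM) and labelled control (6.75, 5.96, 7.87 and 8.38 CPM), by -1.09 ± 0.18 and -0.73 ± 0.17. The last of these calls was lost without labelled lithium-amiloride 1 and with the left-out libraries put back (-0.85 to -0.55).

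*Ccl24* (eotaxin-2), which attracts eosinophils through Ccr3, went the other way. It measured 4.2 to 9.46 CPM (median 5.09) in control, 1.54 to 4.78 CPM (median 2.42) in lithium and 3.82, 3.15, 2.12, 1.75 and 2.4 CPM in lithium-amiloride at 14 days. Every lithium-amiloride library was below every control library, while lithium reached into the control range, and the differences were -1.19 ± 0.27 and -1.20 ± 0.29. At 28 days control (5.4 to 7.52 CPM (median 6.44)) stood wholly above lithium (1.78 to 5.01 CPM (median 3.47)) and lithium-amiloride (1.85, 2.93, 2.57, 2.13 and 3.05 CPM), by -0.95 ± 0.20 and -1.36 ± 0.21 for the treated groups. At 6 months the labelled lithium-amiloride libraries held the most *Ccl24*, 5.39, 4.42 and 5.02 CPM, against 2.89, 4.32, 3.07 and 3.37 CPM under the control label and 2.64, 2.8 and 2.53 CPM under the lithium label. The difference from labelled control, 0.53 ± 0.15, lay at the fold limit and was lost when any 1 of 8 of the 10 libraries was left out or the left-out libraries were put back (0.45 to 0.79 over all alternatives).

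*Ccl5* and *Ccl21*, which guide T cells, were called at 1 time each. *Ccl5* was lower at 28 days, 3.14 to 6.98 CPM (median 6.04) in control against 1.72 to 3.97 CPM (median 3.21) in lithium and 2.57, 1.41, 2.24, 3.03 and 3.32 CPM in lithium-amiloride, with -0.91 ± 0.25 and -1.12 ± 0.27 and some overlap in each case, and at 14 days its difference was 0.08 ± 0.23. *Ccl21*, a ligand of *Ccr7* made by lymphatic vessels and lymphoid stroma, was higher at 14 days in lithium, 7.06 to 21.5 CPM (median 14) against 4.17 to 10.8 CPM (median 6.56) in control (1.07 ± 0.24), with 9.02, 8.18, 8.75, 6.89 and 11.2 CPM in lithium-amiloride and a 28-day difference of -0.32 ± 0.28. *Ccl19*, the other *Ccr7* ligand, was called at 14 days only (1.15 ± 0.31), and *Ccl27* only in lithium-amiloride at 28 days (-0.53 ± 0.20). *Ccl4* was tested at all times and never called, and *Ccl7* and *Ccl22*, with group means under 1 CPM, had too few reads to be tested.

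**Figure D2:**
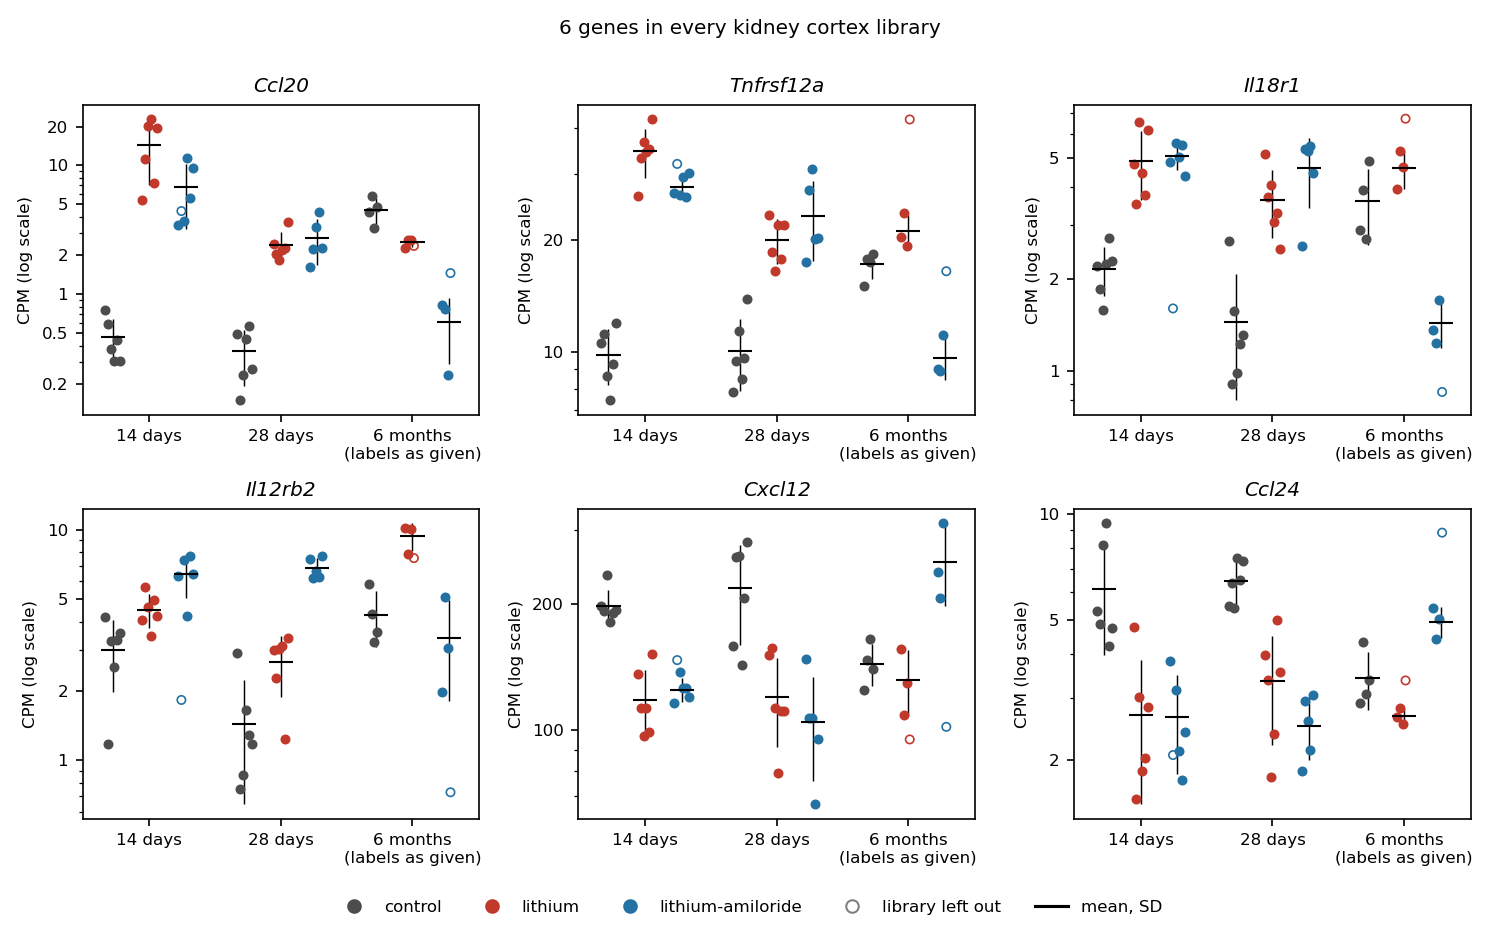
CPM on a log scale (y) of Ccl20, Tnfrsf12a, Il18r1, Il12rb2, Cxcl12 and Ccl24 in every library (points) by time and group (x, 6 months with the labels as given), with mean and SD as lines and left-out libraries as open circles. Ccl20 in lithium at 14 days (5.42 to 23 CPM) lies wholly above control (0.305 to 0.758 CPM), and the labelled lithium-amiloride libraries are the lowest at 6 months for Ccl20, Tnfrsf12a and Il18r1.

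The CXC chemokines held 2 patterns, the interferon-induced trio *Cxcl9*, *Cxcl10* and *Cxcl11*, which call cells through *Cxcr3*, and *Cxcl12*, the homeostatic ligand of *Cxcr4*. *Cxcl10* measured 4.17 to 7.66 CPM (median 7.05) in control, 9.42 to 28.8 CPM (median 18.1) in lithium and 6.73, 12, 11.7, 15.3 and 14.4 CPM in lithium-amiloride at 14 days. Lithium lay wholly above control (1.52 ± 0.25) and lithium-amiloride spanned both groups (0.89 ± 0.26, a call lost without control 1, lithium-amiloride 5 or lithium-amiloride 6 and with the left-out library put back, with 0.74 to 1.03 over all alternatives). *Cxcl9* stood at 1.32 to 1.99 CPM (median 1.59) in control, 2.49 to 5.56 CPM (median 4.57) in lithium and 2.08, 3.08, 4.11, 5.07 and 3.04 CPM in lithium-amiloride. Here both treated groups were above every control library, by 1.34 ± 0.24 and 1.07 ± 0.25. *Cxcl11* was 6.94 to 12.7 CPM (median 8.11), 11.3 to 20.6 CPM (median 16) and 9.93, 12.7, 14.3, 14.8 and 13.4 CPM in the same order, overlapping, with 0.91 ± 0.16 in lithium and 0.61 ± 0.16 in lithium-amiloride. Against lithium alone the lithium-amiloride differences were -0.64 ± 0.25, -0.27 ± 0.23 and -0.30 ± 0.16 for *Cxcl10*, *Cxcl9* and *Cxcl11*, and none was called.

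At 28 days none of the trio was called, the lithium differences being 0.45 ± 0.16, 0.12 ± 0.32 and 0.37 ± 0.16 for *Cxcl10*, *Cxcl9* and *Cxcl11*. At 6 months *Cxcl11* alone was called, lower under the lithium-amiloride label (7.24, 9.75 and 10.1 CPM) than under the control label (10.2, 12.9, 16.1 and 16.8 CPM), by -0.64 ± 0.18, and the call was lost without any 1 of 4 libraries and with the left-out libraries put back (-0.77 to -0.48).

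*Cxcl12* was lower in treated cortex in the short studies. Its levels at 14 days were 181 to 234 CPM (median 193) in control, 96.8 to 152 CPM (median 113) in lithium and 116, 138, 126, 126 and 120 CPM in lithium-amiloride, with no overlap between control and either treated group and differences of -0.74 ± 0.10 and -0.66 ± 0.10. At 28 days control ran from 143 to 281 CPM (median 232), overlapping lithium at 79.3 to 157 CPM (median 112) and lithium-amiloride at 148, 107, 107, 66.7 and 95.2 CPM, with -0.86 ± 0.20 and -1.06 ± 0.21. Libraries labelled lithium-amiloride at 6 months, at 238, 207 and 312 CPM, were above all those labelled control (125, 147, 165 and 140 CPM) and lithium (156, 109 and 130 CPM), by 0.80 ± 0.15 and 0.92 ± 0.17. With the tables' names *Cxcl12* was therefore lower in lithium (-0.80 ± 0.15) and lithium-amiloride (-0.92 ± 0.17) than in control at 6 months too. Both 6-month calls were lost when the left-out libraries were put back, with differences of at least 0.57 under any alternative.

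*Cxcl13*, the B cell chemoattractant, was lower at 28 days, 3.96 to 5.87 CPM (median 5.17) in control against 2.26 to 4.95 CPM (median 2.73) in lithium and 3.41, 2.23, 3.58, 2.45 and 4.95 CPM in lithium-amiloride (-0.73 ± 0.21 and -0.61 ± 0.22). The first call was lost without lithium 4 and the second without any 1 of 7 libraries, the differences running from -0.93 to -0.66 and from -0.79 to -0.49. *Cxcl1*, a neutrophil chemoattractant, was called higher in lithium at 14 days (1.18 ± 0.38) and lower in lithium-amiloride at 28 days (-0.91 ± 0.35). *Cx3cl1* (fractalkine), the tethered ligand of *Cx3cr1*, was called only in lithium-amiloride at 28 days (-0.65 ± 0.15). *Cxcl16* was never called, and *Cxcl6* was too low to test, at 0.525 CPM or less in every main library.

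Several receptors of these ligands were called as well. *Cxcr4*, the receptor of *Cxcl12*, was higher in lithium at 14 days (3.36 to 5.77 CPM (median 4.35) against 2.48 to 3.56 CPM (median 2.96), 0.60 ± 0.15), with 3.54, 3.34, 3.05, 4.16 and 4.24 CPM in lithium-amiloride. At 28 days the lithium libraries (2.74 to 3.86 CPM (median 3.25)) were wholly above control (1.71 to 2.19 CPM (median 1.83)), by 0.81 ± 0.16, and lithium-amiloride overlapped both with 2.41, 1.64, 2.85, 3.3 and 3.1 CPM. *Cxcr4* thus stood above control where its ligand stood below. At 6 months *Cxcr4* was lowest under the lithium-amiloride label (1.46, 1.09 and 1.8 CPM, against 2.74, 3.11, 3.11 and 3.45 CPM under control and 2.6, 2.35 and 2.37 CPM under lithium), by -1.10 ± 0.18 and -0.76 ± 0.19. The first call was lost with the left-out libraries put back (-1.29 to -0.78), and the second then as well and without any 1 of 5 libraries (-0.95 to -0.47).

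*Cxcr3*, the receptor of *Cxcl9*, *Cxcl10* and *Cxcl11* on activated T cells, measured 0.379 to 1.88 CPM (median 1.32) in control, 2.32 to 4.37 CPM (median 2.9) in lithium and 1.8, 2.14, 1.99, 1.3 and 1.52 CPM in lithium-amiloride at 14 days. Lithium lay above every library of both other groups. The differences were 1.26 ± 0.25 for lithium against control and -0.80 ± 0.25 for lithium-amiloride against lithium, the second not called. *Cxcr6*, the receptor of *Cxcl16*, was called in the same comparison (0.85 ± 0.29). T cell genes moved with these: all 7 genes of a T cell list (*Cd3d*, *Cd3e*, *Cd3g*, *Cd2*, *Cd5*, *Lck*, *Cd247*) were called higher in lithium at 14 days, their sum being 6.21 to 10.8 CPM in control, 13.2 to 34.8 CPM in lithium and 11.5 to 15.6 CPM in lithium-amiloride. The 7 genes are known by name only because they too stand in a table of changed genes, and their part in the results was not tested. Some dendritic cell and macrophage genes were called in the same comparison. Of 5 dendritic cell genes 3 (Clec9a, Flt3 and Xcr1) were called higher in lithium and the same 3 lower in lithium-amiloride than in lithium, where 1 of the 7 T cell genes was called lower. The rest of that list, Itgax and Zbtb46, was called in neither comparison. Over all genes 8.49% were called higher in lithium, and 1.4% were called lower in lithium-amiloride than in lithium. The summed dendritic cell list was 21.1 to 32.1 CPM in control, 25.3 to 39.3 CPM in lithium and 21.1 to 31.5 CPM in lithium-amiloride. Of 6 macrophage genes 3 were called higher in lithium, the sum being 74 to 136 CPM in control, 125 to 185 CPM in lithium and 116 to 140 CPM in lithium-amiloride, and the part of either list in the results was not tested.

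*Ccr10*, the receptor of *Ccl28*, went against its ligand. At 28 days it was 13.2 to 16.8 CPM (median 13.8) in control, 8.7 to 14 CPM (median 10.6) in lithium and 8.62, 10.1, 9.39, 8.2 and 8.7 CPM in lithium-amiloride, the last wholly below control by -0.69 ± 0.11. At 6 months it was highest under the lithium-amiloride label, 19.7, 17.7 and 15.6 CPM against 10.9, 12.6, 11.6 and 12.6 CPM under control and 11, 12.7 and 11.3 CPM under lithium, by 0.56 ± 0.10 and 0.59 ± 0.11. The call against labelled control was lost without labelled lithium-amiloride 1 (0.49 to 0.80).

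*Cx3cr1*, a receptor of monocytes and macrophages, was called only in lithium-amiloride against control at 28 days. *Cx3cr1* was 0.858 to 4.83 CPM (median 1.36) in control, 0.961 to 6.11 CPM (median 5.22) in lithium and 6.21, 2.34, 6.6, 5.38 and 7.83 CPM in lithium-amiloride (1.41 ± 0.47, lost without any 1 of 5 libraries, 1.25 to 1.89). All 3 groups overlapped. Of 7 macrophage genes 6 could be named, and all 6 (*Cd68*, *Adgre1*, *Csf1r*, *C1qa*, *C1qb* and *Mrc1*) were called higher in the same comparison, their sum being 33.9 to 82.7 CPM in control, 51.5 to 114 CPM in lithium and 56.9 to 135 CPM in lithium-amiloride. In lithium against control 5 of the 6 were called higher. Over all genes 9.82% were called higher in the first comparison and 5.49% in the second. The part of these 6 genes in the *Cx3cr1* difference was not tested. Other chemokine receptors were low. *Ccr1* and *Ccr6* were tested at some times and never called, and *Ccr7*, *Cxcr2*, *Ccr4* and *Ccr8* had too few reads. At 14 days *Ccr8* was read in no control library and in every lithium library (0.0645 to 0.232 CPM), a few reads in each. It is a member only through that comparison, so nothing is read from this difference.

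Few interleukin genes themselves were well covered. *Il1b*, the inflammasome product interleukin-1β, measured 1.75 to 4.02 CPM (median 3.05) in control, 3.1 to 7.6 CPM (median 4.44) in lithium and 1.87, 2.33, 2.92, 2.92 and 4.05 CPM in lithium-amiloride at 14 days. The groups overlapped and the lithium difference was 0.79 ± 0.26, a call lost without any 1 of 5 libraries (0.64 to 0.92). *Il7*, the T cell survival factor, was 0.672 to 1.29 CPM (median 0.996) in control, 1.47 to 2.32 CPM (median 1.67) in lithium and 0.555, 1.32, 0.663, 1.1 and 1.52 CPM in lithium-amiloride. Lithium lay wholly above control, by 0.80 ± 0.23, and lithium-amiloride did not differ from control by a called amount (0.07 ± 0.25). *Il23a*, the p19 chain of interleukin-23, which sustains T helper 17 cells, was 0.221 to 1.02 CPM (median 0.601), 0.96 to 1.82 CPM (median 1.48) and 1.18, 1.13, 1.33, 1.17 and 1.14 CPM in that order. It was called in both treated groups, at 1.26 ± 0.25 and 0.99 ± 0.27, and at 28 days its lithium difference was 0.01 ± 0.25.

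*Il16*, a ligand of CD4, was called in lithium-amiloride at 14 days only (-0.63 ± 0.21, 7.63 to 17.8 CPM (median 10.5) in control and 6.25, 8.75, 8.29, 7.21 and 6.89 CPM in lithium-amiloride), lost without any 1 of 11 libraries (-0.71 to -0.46). *Il17d* was called in lithium-amiloride at 28 days only, 0.672, 0.82, 0.503, 0.692 and 0.653 CPM against 0.828 to 2.03 CPM (median 1.52) in control (-1.13 ± 0.28), with no overlap. *Il12a*, the p35 chain of interleukin-12, was called there as well (-0.69 ± 0.24). *Il33*, *Il34* and *Il15* were tested at all times and never called. *Il24* and *Il19*, of the interleukin-10 family, were too low to test. At 14 days *Il24* was read in no control library, at 0 to 0.0694 CPM in lithium-amiloride and at 0.0773 to 0.673 CPM in lithium. It is a member only through the 14-day lithium table and rests on few reads, so nothing is read from this difference.

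**Figure D3:**
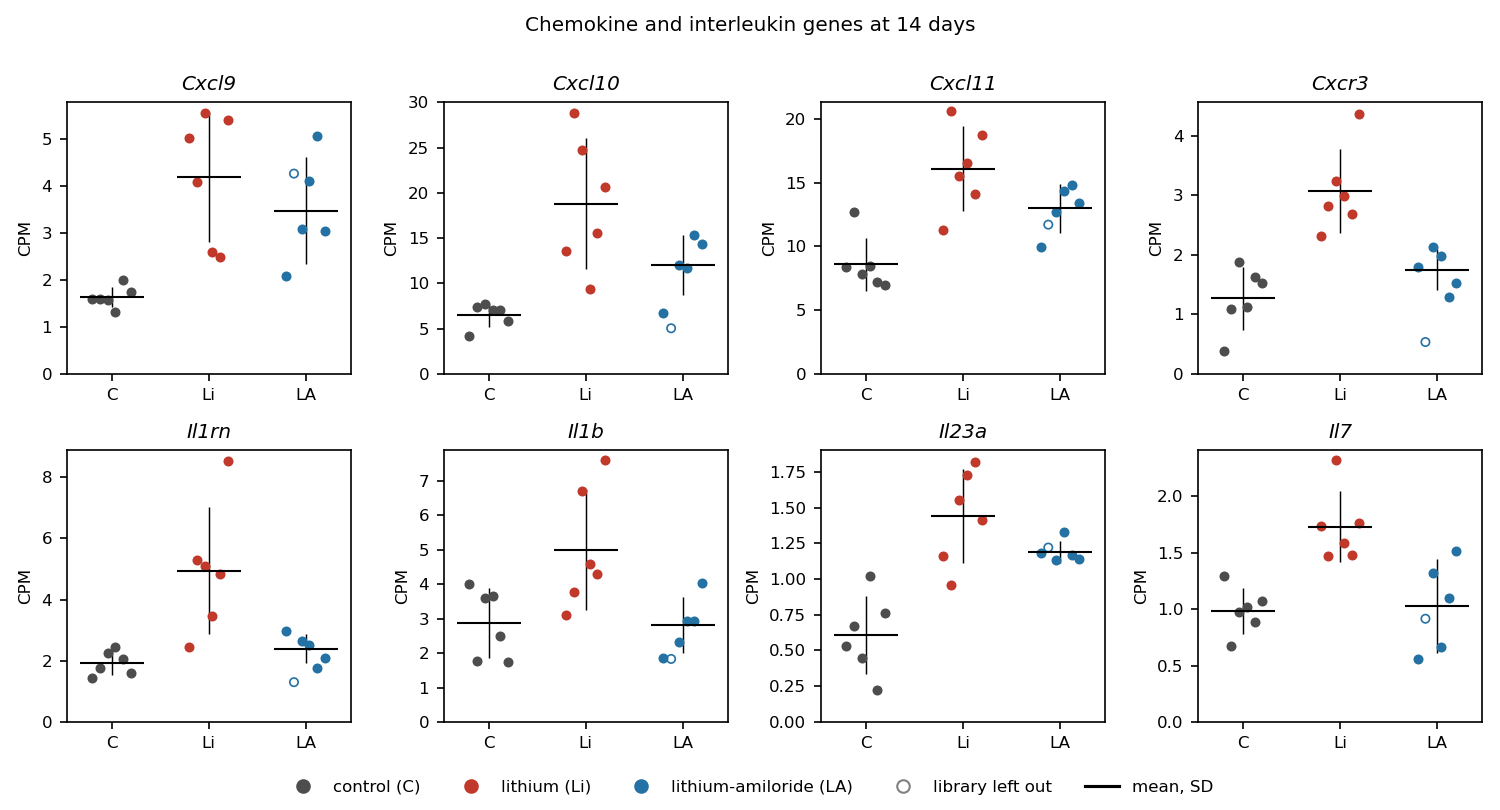
CPM (y) of Cxcl9, Cxcl10, Cxcl11, Cxcr3, Il1rn, Il1b, Il23a and Il7 at 14 days in control, lithium and lithium-amiloride libraries (points; open circle, left-out library), with mean and SD as lines. Cxcr3 in lithium (2.32 to 4.37 CPM) lies above every library of the other groups, and Il1rn in lithium (2.45 to 8.52 CPM) lies wholly above control (1.44 to 2.44 CPM).

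The interleukin receptors made up 25 members, and both chains of the interleukin-18 receptor were among those called at 14 days. *Il18r1*, the ligand-binding chain for interleukin-18, measured 1.58 to 2.73 CPM (median 2.22) in control, 3.52 to 6.57 CPM (median 4.61) in lithium and 4.86, 5.6, 5.04, 5.52 and 4.36 CPM in lithium-amiloride. Both treated groups were wholly above control, by 1.18 ± 0.17 and 1.24 ± 0.18. Its partner chain *Il18rap* was 0.509 to 1.47 CPM (median 1.16), 1.95 to 4.08 CPM (median 2.54) and 2.85, 2.77, 2.59, 3.05 and 3.16 CPM in the same order. The groups were again apart from control, by 1.37 ± 0.22 and 1.42 ± 0.23, so the receptor's chains were both higher. At 28 days *Il18r1* was 0.901 to 2.66 CPM (median 1.27) in control, 2.5 to 5.14 CPM (median 3.51) in lithium and 2.57, 5.33, 5.25, 5.48 and 4.46 CPM in lithium-amiloride, with single overlapping libraries and differences of 1.31 ± 0.26 and 1.65 ± 0.26. *Il18rap* was then called only in lithium-amiloride (1.29 ± 0.22, 1.57, 1.76, 3.07, 2.4 and 2.23 CPM against 0.627 to 1.2 CPM (median 0.863)).

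At 6 months *Il18r1* was lowest under the lithium-amiloride label, 1.36, 1.23 and 1.7 CPM against 2.89, 3.93, 2.71 and 4.89 CPM under control and 3.94, 5.27 and 4.66 CPM under lithium. The differences were -1.34 ± 0.24 and -1.70 ± 0.25 and held under every alternative. With the tables' names *Il18r1* was higher than control by 1.34 ± 0.24 in lithium and 1.70 ± 0.25 in lithium-amiloride. *Il18rap* was not called, with 0.07 ± 0.32 and -0.07 ± 0.34.

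*Il12rb2*, the signalling chain of the interleukin-12 receptor, was the member whose difference between lithium-amiloride and lithium was called at 28 days. Its levels were 0.75 to 2.93 CPM (median 1.24) in control, 1.24 to 3.39 CPM (median 3.02) in lithium and 7.5, 6.21, 6.6, 6.23 and 7.67 CPM in lithium-amiloride. The lithium-amiloride libraries stood wholly above both other groups, by 2.20 ± 0.28 over control and 1.34 ± 0.26 over lithium. The second call was lost without lithium 2, lithium-amiloride 1 or lithium-amiloride 5 (1.20 to 1.42), and the lithium difference of 0.86 ± 0.28 without any 1 of 9 libraries (0.73 to 1.22). At 14 days *Il12rb2* was 1.18 to 4.17 CPM (median 3.31) in control, 3.45 to 5.63 CPM (median 4.43) in lithium and 6.32, 7.43, 4.24, 7.67 and 6.45 CPM in lithium-amiloride, wholly above control in the last group (1.08 ± 0.22). At 6 months the libraries labelled lithium were highest, 10.2, 7.84 and 10.1 CPM against 5.85, 4.32, 3.25 and 3.61 CPM under control and 1.99, 5.11 and 3.08 CPM under lithium-amiloride. With the tables' names the gene was higher in lithium-amiloride than in control by 1.47 ± 0.30 at 6 months.

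*Il17re*, the epithelial receptor chain for interleukin-17C, was 1.28 to 1.77 CPM (median 1.49) in control, 2.16 to 4.37 CPM (median 3.2) in lithium and 2.78, 3.34, 1.79, 4.35 and 3.1 CPM in lithium-amiloride at 14 days, apart from control in both (1.07 ± 0.21 and 1.01 ± 0.21). At 28 days it was 0.677 to 2.15 CPM (median 1.46), 1.49 to 2.73 CPM (median 1.99) and 2.74, 3.63, 4.02, 2.61 and 2.94 CPM, called in lithium-amiloride (1.13 ± 0.22). At 6 months it was the one member called higher under the lithium label than under control, 3.77, 3.92 and 3.6 CPM against 2.21, 2.46, 2.18 and 2.36 CPM. That difference of 0.71 ± 0.16 was lost without any 1 of 7 libraries and with the left-out libraries put back (0.68 to 0.77), and labelled lithium-amiloride libraries held 1.55, 2.55 and 2.04 CPM. *Il22ra2*, a soluble receptor that binds and blocks interleukin-22, was called at 14 days in lithium and lithium-amiloride (1.41 ± 0.31 and 1.49 ± 0.31), with 0.531 to 1.31 CPM (median 0.954) and 0.833, 0.818, 1.26, 0.65 and 1.39 CPM against 0.152 to 0.525 CPM (median 0.321) in control. Its 28-day call in lithium-amiloride (1.02 ± 0.35) was lost without any 1 of 6 libraries (0.86 to 1.19).

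*Il1rn*, the interleukin-1 receptor antagonist, was 1 of 2 members called lower in lithium-amiloride than in lithium at 14 days. It measured 1.44 to 2.44 CPM (median 1.91) in control, 2.45 to 8.52 CPM (median 4.97) in lithium and 2.98, 2.64, 2.52, 1.75 and 2.09 CPM in lithium-amiloride. Lithium was wholly above control (1.36 ± 0.25) and overlapped lithium-amiloride, which was lower than lithium by -1.04 ± 0.25 and differed from control by 0.32 ± 0.27, which was not called. Both members were lost from this comparison without lithium 6, and 1 was left without lithium 2 or lithium-amiloride 5. *Il1rl2*, the interleukin-36 receptor, was called higher in lithium at 14 days (2.37 ± 0.44), at 0.929 to 1.28 CPM against 0 to 0.45 CPM in control. Control held few reads and the gene passed the read filter through treated libraries, so the size of this difference is uncertain. Lithium-amiloride lay below every lithium library (-1.18 ± 0.38, not called). *Il1rn* and *Il1rl2* were named after their values were seen.

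The rest of the interleukin receptors are given by their calls. At 14 days *Il12rb1*, *Il15ra*, *Il1r1*, *Il21r*, *Il2rg* and *Il6r* were called higher in lithium, with log2 fold changes from 0.61 ± 0.15 (*Il15ra* and *Il1r1*) to 1.03 ± 0.35 (*Il12rb1*). *Il2rg* is the common gamma chain, shared by the receptors of interleukin-2 and its relatives. At 28 days *Il10ra* was higher in both treated groups (1.08 ± 0.33 and 1.22 ± 0.34) and *Il2rb* lower (-0.53 ± 0.18 and -0.64 ± 0.19). *Il17rd*, *Il1rap*, *Il1rl1* and *Il21r* were called higher at 28 days in lithium-amiloride and not in lithium, from 0.51 ± 0.15 (*Il1rap*) to 1.63 ± 0.45 (*Il17rd*). *Il9r* was called at 6 months (-1.48 ± 0.42 under the lithium-amiloride against the control label), and *Il4r*, *Il6st*, *Il11ra1*, *Il10rb*, *Il17rc* and *Il17rb* were called in no comparison.

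Of the TNF receptors, *Tnfrsf12a*, the receptor of *Tnfsf12* (TWEAK), was called at all 3 times. At 14 days it stood at 7.43 to 12 CPM (median 9.95) in control, 26.3 to 42.3 CPM (median 34.7) in lithium and 26.7, 26.4, 29.5, 26.1 and 30.2 CPM in lithium-amiloride. Both treated groups were wholly above control, 3.5-fold and 2.81-fold higher (log2 1.81 ± 0.11 and 1.49 ± 0.12). At 28 days it was 7.81 to 13.9 CPM (median 9.56), 16.5 to 23.4 CPM (median 20.2) and 17.5, 27.3, 31, 20.1 and 20.2 CPM in that order, again apart (0.99 ± 0.16 and 1.20 ± 0.16). Libraries labelled lithium-amiloride at 6 months held the least, 9.04, 8.89 and 11.1 CPM against 15.1, 17.8, 17.5 and 18.4 CPM under control and 20.4, 23.6 and 19.3 CPM under lithium. The differences were -0.84 ± 0.11 and -1.13 ± 0.12, which with the tables' names are 0.84 ± 0.11 in lithium and 1.13 ± 0.12 in lithium-amiloride over control. The first of these 6-month calls was lost with the left-out libraries put back (-0.95 to -0.60). The ligand *Tnfsf12* was called only in lithium-amiloride at 28 days (-0.66 ± 0.20; 16.9 to 31.4 CPM (median 26) in control, 20.2, 20.8, 14.3, 13.6 and 12 CPM in lithium-amiloride).

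*Tnfrsf9* (4-1BB), a costimulatory receptor of T cells, was lower in treated cortex in the short studies. It was 9.24 to 12.8 CPM (median 11.4) in control, 4.32 to 8.66 CPM (median 5.42) in lithium and 5.07, 3.78, 8.35, 9.16 and 6.01 CPM in lithium-amiloride at 14 days, apart from control in both treated groups (-0.89 ± 0.20 and -0.78 ± 0.20). At 28 days it was 7.05 to 13.1 CPM (median 9.93), 4.04 to 10.9 CPM (median 5.82) and 8.28, 6.21, 5.2, 4.31 and 5.77 CPM, overlapping, with -0.66 ± 0.22 and -0.80 ± 0.24, the first lost without any 1 of 12 libraries (-0.86 to -0.55). It was highest under the lithium-amiloride label at 6 months, 5.93, 6.11 and 4.35 CPM against 2.59, 2.81, 3.43 and 3.21 CPM under control (0.85 ± 0.17, a call lost with the left-out libraries put back, 0.78 to 1.43). *Tnfrsf9* and the T cell list thus went opposite ways at 14 days. *Tnfrsf11b* (osteoprotegerin), the decoy receptor for RANKL, was lower at 14 days only, 24.5 to 37.5 CPM (median 30.2) in control, 7.03 to 25.1 CPM (median 15.6) in lithium and 6.94, 12.7, 13.9, 8.77 and 16.8 CPM in lithium-amiloride (-0.96 ± 0.23 and -1.34 ± 0.25), while *Tnfrsf11a*, the RANK receptor that the same ligand binds, was higher in lithium (0.52 ± 0.18).

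*Tnfrsf1b*, the TNF receptor of leukocytes and endothelium, was wholly above control in lithium at 14 days, 10.8 to 22.7 CPM (median 13.2) against 8.34 to 10.7 CPM (median 9.47) (0.62 ± 0.18), a call lost without lithium 6, with 0.45 as the lowest value under any alternative. *Tnfrsf1a*, the widely expressed TNF receptor, was also wholly above control, 56 to 73.1 CPM against 40.1 to 55.1 CPM, but its difference of 0.48 ± 0.08 did not reach the fold limit. *Tnfrsf26* was lower in lithium-amiloride, 3.96, 3.08, 4.18, 3.7 and 4.36 CPM, than in lithium, 4.8 to 6.48 CPM (median 5.58), at 14 days by -0.55 ± 0.13, lost without any 1 of 5 libraries and with the left-out library put back (-0.60 to -0.48). *Tnfrsf21* and *Tnfrsf14* were called nowhere.

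The TNF ligands were called in few comparisons. *Tnfsf13b* (BAFF), the B cell survival factor, was lower at 28 days, 2.71 to 6.57 CPM (median 4.03) in control against 1.72 to 3.67 CPM (median 2.42) in lithium and 2.63, 1.64, 2.35, 2.45 and 2.77 CPM in lithium-amiloride (-0.78 ± 0.21 and -0.86 ± 0.22). Its relative *Tnfsf13* (APRIL) was wholly below control in lithium at 14 days, 27.9 to 35.1 CPM (median 29.1) against 35.2 to 46.7 CPM (median 42.4), with -0.48 ± 0.07 just short of the fold limit, and was called at 28 days in lithium-amiloride (-0.50 ± 0.14, lost without any 1 of 8 libraries, -0.61 to -0.45). *Tnfsf12* and *Tnfsf13* are adjacent genes known to make a fusion transcript in human, and how the counting shared such reads was not examined, so their separate values are uncertain. *Tnfsf15* was called at 14 days in lithium (1.47 ± 0.40) at 0.258 to 1.02 CPM (median 0.751) against 0.084 to 0.516 CPM (median 0.19). It had enough reads in only 13 of the 17 fits that left out 1 library, so the call could not be made in the rest. *Tnfsf10* (TRAIL) was not called, its 28-day difference in lithium-amiloride being -0.38 ± 0.08, and *Tnfsf8* was too low to test.

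Among the other Tnf-named genes, *Tnfaip2* and *Tnfaip3*, both induced by TNF, were higher in lithium at 14 days. *Tnfaip2* was 20.4 to 28 CPM (median 22.9) in control, 37.7 to 73.3 CPM (median 47.7) in lithium and 92.7, 44.1, 30.7, 34.4 and 42 CPM in lithium-amiloride, apart from control in both (1.10 ± 0.23 and 1.05 ± 0.24). *Tnfaip3* (A20), the ubiquitin-editing brake on NF-κB, was 4.8 to 6.56 CPM (median 5.86), 4.32 to 10.1 CPM (median 9.4) and 7.01, 6.3, 6.7, 6.37 and 7.53 CPM, overlapping because 1 lithium library lay below control (0.58 ± 0.16). *Tnfaip6* (TSG-6), a hyaluronan-binding protein, was lower at 28 days, 1.58 to 3.05 CPM (median 1.94) in control, 0.917 to 1.65 CPM (median 1.21) in lithium and 1.18, 0.82, 1.17, 1.01 and 0.598 CPM in lithium-amiloride (-0.65 ± 0.21, lost without any 1 of 7 libraries, -0.74 to -0.51, and -1.08 ± 0.22). *Tnfaip8* was called at 6 months only, 307, 295 and 246 CPM under the lithium-amiloride label against 197, 194, 195 and 180 CPM under control (0.55 ± 0.08). *Tnfaip1*, *Tnfaip8l1*, *Tnfaip8l2* and *Tnfaip8l3* were not called.

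The genes that act downstream were read from lists that hold no member, of which those found in a table of changed genes could be named, so that every gene counted had been found changed in some comparison. Of 12 such NF-κB genes 7 were called higher and none lower in lithium at 14 days (*Nfkb2*, *Relb*, *Nfkbia*, *Nfkbie*, *Nfkbiz*, *Bcl3* and *Ikbke*), with 4 higher in lithium-amiloride, where 8.49% and 5.04% of all genes were called higher. *Nfkbie*, an inhibitor of NF-κB, was higher by 1.13 ± 0.12 and *Ikbke*, a kinase of the pathway, by 0.73 ± 0.07. Of 7 TNF receptor adaptors, *Traf1* and *Birc3* were called higher, *Birc3* by 1.32 ± 0.14. Of 10 JAK and STAT genes, *Jak3*, *Stat3* and *Socs3* were called higher. *Socs3*, the inhibitor induced by gp130 cytokines, was at 6.78 ± 2.17 CPM (mean ± SD) in lithium against 1.23 ± 0.39 CPM in control (2.46 ± 0.28) and was lower in lithium-amiloride than in lithium by -1.37 ± 0.26. Among 21 tested cytokine and receptor genes with other names 9 were called higher, including *Lif* (2.30 ± 0.21) and the oncostatin M receptor *Osmr* (1.13 ± 0.15).

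Fewer of the NF-κB genes were called at the later times. At 28 days 2 of the 12 NF-κB genes were higher in lithium (*Nfkbie* and Ikbkg) and 3 in lithium-amiloride (with Rel), and none was lower. No TNF receptor adaptor was called in lithium, and *Birc3* was higher in lithium-amiloride. *Socs3* was higher in lithium (0.71 ± 0.21), whereas Socs1 and Socs2, relatives that also restrain cytokine receptors, were lower in both treated groups. Of the 21 genes with other names 7 were higher and 1 lower in lithium, and 5 were higher and 2 lower in lithium-amiloride. Over all genes 5.49% were called higher and 3.59% lower in lithium, and 9.82% and 6.79% in lithium-amiloride. At 6 months, under the lithium-amiloride against the control label, 2 NF-κB genes were lower (*Nfkbiz* and *Ikbke*), as were *Socs3* (-1.22 ± 0.30) and 5 of 22 genes with other names (*Osmr*, *Lif*, *Csf1r*, Fas and Spp1), and none of these lists had a gene higher. Over all genes 2.1% were called higher and 5.44% lower there. *Socs3* and *Osmr* were also lower under the lithium than under the control label (-1.59 ± 0.30 and -0.75 ± 0.17), where 0.599% of all genes were called lower. With the tables' names, the genes lower under the lithium-amiloride than under the control label were higher in lithium than in control. *Socs3* and *Osmr* were then lower in lithium-amiloride than in lithium.

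At 28 days fewer members were called in lithium and more in lithium-amiloride. Of 74 tested, 7 were higher and 8 lower in lithium than in control (5.49% and 3.59% of all genes), and 15 were higher and 17 lower in lithium-amiloride than in control (9.82% and 6.79%). Lithium-amiloride against lithium gave 1 higher, *Il12rb2*, and none lower (0.339% and 0.099%), and DESeq2 also called none lower. At an unadjusted p under 0.05 edgeR had 3 members higher and 7 lower there, and 1570 of all 14140 genes in either direction. These counts moved with single libraries. Without lithium 5 there were 15 members higher in lithium and without control 1 there were 11, while without lithium 3, 4 or 6 there were 5 lower. Without control 3 or lithium-amiloride 3 there were 11 members lower in lithium-amiloride than in control.

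The test that the choice of members left free was whether a gene listed at 1 time differed at the other, in other libraries. Of 57 members in the 14-day lithium table, 43 could be tested at 28 days, and 6 were called higher (*Ccl20*, *Ccl28*, *Cxcr4*, *Il12rb2*, *Il18r1* and *Tnfrsf12a*) and 3 lower (*Ccl24*, *Cxcl12* and *Tnfrsf9*), all in their 14-day direction. The adjusted p at 28 days (edgeR, Benjamini-Hochberg over all genes) was 2.32e-05 for *Ccl20*, 0.000442 for *Tnfrsf12a*, 0.00279 for *Il18r1*, 0.00222 for *Cxcr4*, 0.00391 for *Ccl24* and 0.00825 for *Cxcl12*. It was 0.0214 for *Ccl28*, 0.0392 for *Il12rb2* and 0.047 for *Tnfrsf9*, the last 2 calls being lost without any 1 of 9 and of 12 libraries. In all, 33 of the 43 had the sign of their 14-day change, and without lithium 5 the number called higher was 10. The reverse, 26 tested members of the 28-day lithium table seen at 14 days, gave 8 higher (*Ccl20*, *Ccl28*, *Cxcl10*, *Cxcr4*, *Il18r1*, *Il1rl2*, *Il6r* and *Tnfrsf12a*) and the same 3 lower, with 22 signs alike (taken from mean CPM where the listed gene had too few reads for a fit at 28 days). *Il1rl2* had few reads in control at 14 days and could be tested there only because treated libraries held more, so its call is weak support.

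The members are set here beside all genes of the same tables. Of the 3878 tested genes of the 14-day lithium table, 13% were called higher at 28 days, 4.1% were called lower and 78.4% had the same sign, where the members gave 14%, 6.98% and 76.7%. Of the 3024 tested genes of the 28-day table, 17.9% were higher at 14 days, 6.05% were lower and 81% had the same sign, against 30.8%, 11.5% and 84.6% of the members. Over all tested genes, listed or not, the shares called in lithium were 5.49% higher and 3.59% lower at 28 days and 8.49% and 3.63% at 14 days. The shares of members listed at 14 days thus lay near those of any gene of that table, and the difference between members and other listed genes was not tested.

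For lithium-amiloride against control, 25 members of the 14-day table were tested at 28 days. Of these 8 were called higher (*Ccl20*, *Il12rb2*, *Il17rd*, *Il17re*, *Il18r1*, *Il18rap*, *Il22ra2* and *Tnfrsf12a*) and 6 lower (*Ccl24*, *Cx3cl1*, *Cxcl12*, *Tnfrsf9*, *Tnfsf13* and *Tnfsf13b*), and 20 kept their sign. The calls of *Il22ra2* and *Tnfsf13* were lost without any 1 of 6 and of 8 libraries. These shares of 32% and 24% stood against 21.1% and 8.59% of the 2655 tested genes of that table, of which 83.3% kept their sign (80% of the members), and against 9.82% and 6.79% of all genes. In the reverse direction 47 were tested at 14 days, 7 were called higher and 3 lower, and 38 had the same sign, which is 14.9%, 6.38% and 80.9% against 9.57%, 3.48% and 75.7% of the 5285 tested genes of the 28-day table, with 5.04% and 3.27% of all genes called at 14 days. For lithium-amiloride against lithium none of the 5 tested members of the 14-day table was called at 28 days by edgeR or by DESeq2 (0 at an unadjusted p under 0.05), and the 1 member of the 28-day table, *Il12rb2*, was not called at 14 days (0.51 ± 0.21), where it passed an unadjusted p under 0.05.

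**Figure D4:**
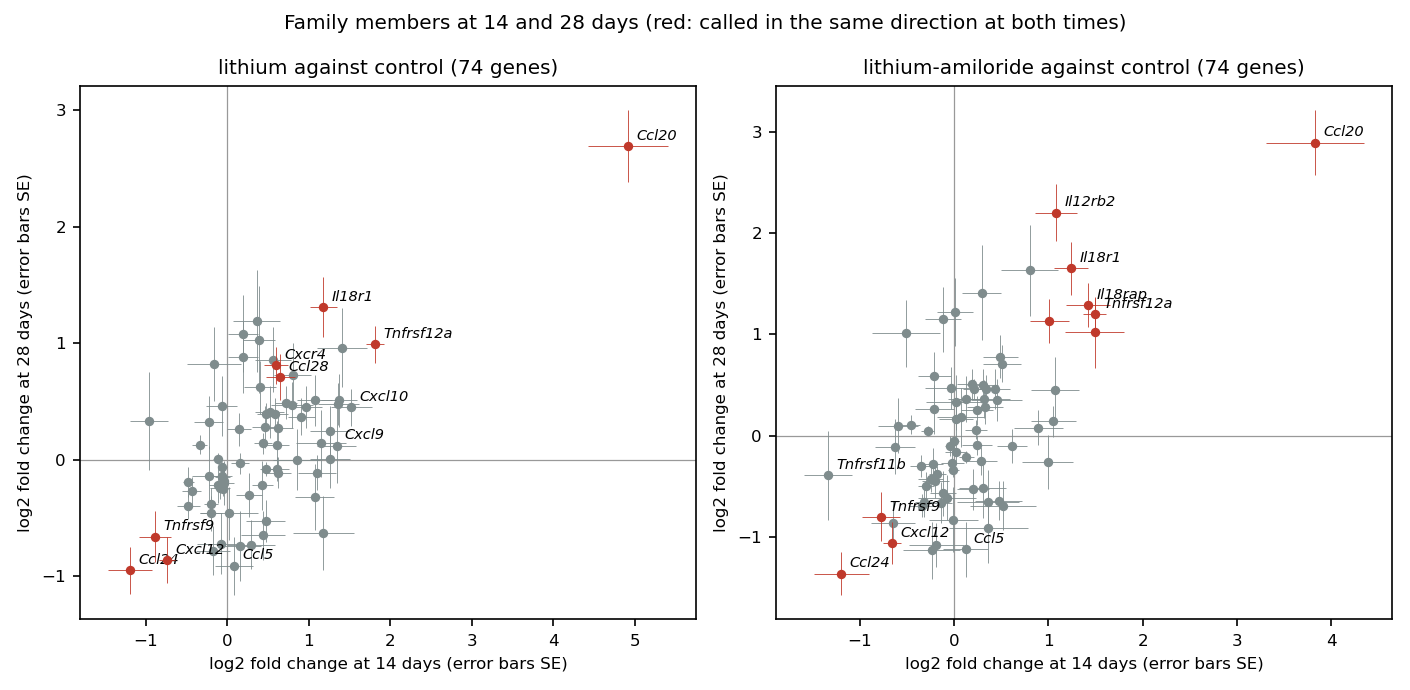
Log2 fold changes at 14 days (x) and 28 days (y) of the 74 members tested at both times, for lithium against control and for lithium-amiloride against control; red points were called in the same direction at both times. Ccl20 lies far out in both panels (4.92 and 2.69 in lithium), with Tnfrsf12a, Il18r1, Cxcr4 and Ccl28 high and Ccl24, Cxcl12 and Tnfrsf9 low in lithium.

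At 6 months the members called were few and lay mostly between the labelled lithium-amiloride libraries and the rest. Of 78 tested, 1 was higher and none lower under the lithium than under the control label (1.39% and 0.599% of all genes), 5 were higher and 7 lower under the lithium-amiloride than under the control label (2.1% and 5.44%), and 3 were higher and 8 lower under the lithium-amiloride than under the lithium label (2.01% and 5.77%). With the tables' names these read as 7 higher and 5 lower in lithium than in control, 8 higher and 3 lower in lithium-amiloride than in control, and 1 higher and none lower in lithium-amiloride than in lithium. For that last comparison, labelled lithium against labelled control, edgeR had 6 members higher and 16 lower at an unadjusted p under 0.05. Of all 14532 genes, 2531 passed that limit in either direction. DESeq2 called 3 members higher and 2 lower. The 7 were *Ccl20*, *Ccl28*, *Cxcl11*, *Cxcr4*, *Il18r1*, *Il9r* and *Tnfrsf12a*, and the 5 were *Ccl24*, *Ccr10*, *Cxcl12*, *Tnfaip8* and *Tnfrsf9*. Without labelled lithium-amiloride 1 the 5 higher members became 3 and the 7 lower became 4, and without labelled control 1 there were 3 members higher and 3 lower under the lithium label. Without labelled lithium-amiloride 2 there were 5 members higher under the lithium-amiloride than under the lithium label, and the 1 member higher under the lithium than under the control label, *Il17re*, was lost without any 1 of 7 libraries. With the left-out libraries put back, 10 of the 22 calls at 6 months of the members given in full were lost. T cell sums at 6 months were 9.94 to 18 CPM under the control label, 7.35 to 11.7 CPM under lithium and 8.02 to 10.8 CPM under lithium-amiloride, and no T cell gene was called in any of the 3 comparisons.

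Over all times, 16 members stood in tables of all 3 times and 54 in those of 1 time, and 31 were called in none of the 9 comparisons of the counts. The same shares were not counted over all listed genes, so nothing about the members is read from them. The 31 include the 10 that were never tested. The 10 members with too few reads to be tested at any time were *Ccl7*, *Ccl22*, *Cxcl6*, *Tnfsf8*, *Ccr7*, *Cxcr2*, *Ccr4*, *Ccr8*, *Il24* and *Il19*.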

How the data were processed

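RNA from kidney cortex was made into stranded, poly(A)-selected libraries and sequenced. Per the labels and the study's methods, the authors trimmed reads with cutadapt, aligned them to Rnor 6.0 with HISAT2 2.1.0 and counted them per gene with featureCounts (0.2.6 and 2.0.0 are the versions in the submitters' notes for the first and last, and the methods give others). The deposited matrices hold raw counts, 1 table for each time. The deposited tables of changed genes hold the authors' mean signal, which showed the libraries behind each table, and their log2 fold changes and p-values, of which only the sign was used, to find the 6-month names. Gene symbols came from those tables, and the strand setting of the counting is not given in the sources used here.

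The counts of each time were fitted separately with edgeR 4.0.16 (R 4.3.3; TMM, filterByExpr, quasi-likelihood test, Benjamini-Hochberg over all genes), all 3 groups together and without a block. Levels were scaled to 1000000 reads with TMM factors and are not compared between times or between genes. A gene was called at an adjusted p under 0.05 when its log2 fold change was 0.5 or more in size. The members, lists and alternatives were chosen with earlier results of these data known. In each of 8 role groups the 5 members called most often are given in full, ties going to the higher mean level. Of these, 1 is not reported here, and it stays in the counts over all members. Alternatives were DESeq2 1.42.0, its size factors, no low-count filter, no fold limit, all 47 deposited libraries, a replicate block and leaving out each library. The fits were tested on simulated counts.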

Additional observations from a re-analysis of the deposited data

Results flagged for a closer look

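Of 273 groups of 4 to 6 libraries of the genes given in full, 16 (5.86%) held a library far from the others by Dixon's criterion, where chance gives about 1 in 20. The high libraries were, in CPM, 28-day lithium 6 for *Ccl20* (3.62) and *Tnfrsf11b* (33.2), 28-day lithium 1 for *Cxcl13* (4.95), and 28-day control 3 for *Tnfaip6* (3.05) and *Il16* (13.5). At 14 days they were control 3 for *Cxcl12* (234), control 2 for *Cxcl11* (12.7), lithium 1 for *Tnfsf13* (35.1), lithium 3 for *Il7* (2.32), and lithium-amiloride 1 for *Tnfaip2* (92.7) and 4 for *Il23a* (1.33). The low libraries were 14-day lithium 1 for *Tnfaip3* (4.32), 28-day control 6 for *Tnfsf13* (28.3) and, under the control label at 6 months, libraries 1 for *Ccl5* (2.4), 4 for *Tnfaip8* (180) and 3 for *Il1b* (2.14).

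For 12 of the 39 members given in full, all libraries of a group lay on 1 side in the short studies and on the other side at 6 months with the labels as given. The same held for 15 of the 74 members tested at all times (20.3%) and for 12.8% of the 13862 genes tested at all times. The 39 were picked in each role group as the members called most often, and the difference between times was not tested. Against control, lithium gave *Ccl20* log2 fold changes of 4.92 at 14 days, 2.69 at 28 days and -0.83 at 6 months, *Tnfrsf1b* 0.62 at 14 days and -0.36 at 6 months, and *Cxcr4* 0.81 at 28 days and -0.34 at 6 months. In time order, lithium-amiloride against control gave 3.83, 2.89 and -2.88 for *Ccl20*, -1.20, -1.36 and 0.53 for *Ccl24*, and 1.49, 1.20 and -0.84 for *Tnfrsf12a*. At 14 days and 6 months it gave -0.66 and 0.80 for *Cxcl12*, -0.78 and 0.85 for *Tnfrsf9*, 0.99 and -0.82 for *Il23a*, and 1.24 and -1.34 for *Il18r1*, and at 28 days and 6 months -0.43 and 0.55 for *Tnfaip8* and -0.69 and 0.56 for *Ccr10*. Lithium-amiloride against lithium gave *Il12rb2* 1.34 at 28 days and -1.47 at 6 months. With the names that the 6-month tables follow, the 6-month lithium-amiloride against control values change sign and become lithium against control. Lithium against control at 6 months was then 2.88 for *Ccl20*, 0.28 for *Tnfrsf1b* (not called) and 1.10 for *Cxcr4*. Lithium-amiloride against lithium was then 1.14 for *Il12rb2* (not called). Each of these values had the sign given above for the short studies.

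The 3 left-out libraries also held member reads above the controls, and more members lay below every control library than above. In 14-day lithium-amiloride 2, 19 of the 90 members were above and 24 below, with *Il17re* at 9.46 CPM against at most 4.35 CPM in its group. In 6-month labelled lithium 4 there were 14 above and 47 below, with *Ccl5* at 4.14 CPM against 2.32 CPM, and in labelled lithium-amiloride 4 there were 26 above and 43 below, with *Ccl4* at 1.7 CPM against 0.583 CPM. Among genes with enough reads to be tested, the shares above and below were 21.8% and 30.8% of members against 26.5% and 22.9% of all genes in the first, 17.9% and 51.3% against 31.1% and 31.5% in the second, and 32.1% and 44.9% against 41.6% and 44% in the third. Marker sums differed too. The adipocyte list summed to 1724 CPM in the first against 15.6 to 21.9 CPM in its group, and to 40.4 CPM in the second against 28.3 to 33.9 CPM. In the third the collecting duct list summed to 554 CPM against 214 to 322 CPM, and the erythroid list to 198 CPM against 75.3 to 97.4 CPM. The part of this in the members' values and in the lost calls was not tested.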

How the results depend on the processing

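Of 99 calls of the members given in full, 73 were kept under every alternative in which the gene had enough reads to be tested. The other 26 were lost under at least 1, of which 21 were lost when a single library was left out, and none was reversed. The 14-day *Tnfsf15* call counts as kept, though the gene was tested in only 18 alternatives, against 23 for *Ccl20* at that time. Putting back the left-out libraries ended 12 of them, the replicate block 11 and dropping the low-count filter 9. With DESeq2, members called numbered 6 lower in lithium-amiloride than in lithium at 14 days, 11 higher in lithium at 28 days, and 3 higher and 2 lower under the lithium than under the control label at 6 months. With all deposited libraries, 1 was lower in lithium-amiloride than in lithium at 14 days, 0 were higher under the lithium label at 6 months, and 2 were higher and 3 lower under the lithium-amiloride than under the control label. Without the low-count filter 4 were lower in lithium-amiloride than in lithium at 14 days. Without the fold limit 8 were lower in lithium and 9 in lithium-amiloride than in control at 14 days, and at 6 months 10 were higher under the lithium-amiloride label than under lithium and 10 than under control.

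Leaving out each library in turn, the counts higher and lower ranged at 14 days from 24 to 35 and 4 to 6 in lithium, from 11 to 14 and 4 to 6 in lithium-amiloride, and from 0 to 3 lower in lithium-amiloride against lithium. At 28 days they ranged from 5 to 15 and 5 to 11 in lithium, from 12 to 18 and 11 to 21 in lithium-amiloride, and from 0 to 1 higher between these. At 6 months they ranged from 0 to 3 and 0 to 3 under the lithium label, from 3 to 5 and 4 to 8 under the lithium-amiloride label, and from 3 to 5 and 7 to 8 between these. Listed at 14 days and tested at 28 days, lithium gave 5 to 10 higher and 2 to 3 lower and lithium-amiloride 7 to 8 and 5 to 6, and the reverse gave 8 to 10 and 3 to 4, and 7 to 9 and 3 to 4.

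Replicate numbers did not pair the libraries, the correlations of same-numbered libraries lying between -0.22 and 0.255. With the replicate block 0 members were lower in lithium-amiloride than in lithium at 14 days, 0 were higher under the lithium label at 6 months and 4 were lower under the lithium-amiloride than under the control label, and the other 15 counts stayed within 1.5 times. A list of members taken from reference symbols was not run, as the reference does not hold the gene identifiers. Members under about 1 CPM rest on few reads, so a missing call there says that a difference was not detectable at this depth.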
